A study of Homo sapiens with 19 samples.

Results

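The 9 genes described here encode transcription factors that set or maintain the identity of intestinal epithelium: CDX1, CDX2, HNF4A, HNF4G, KLF4, KLF5, GATA6, FOXA1 and ONECUT2. They were chosen by symbol and not by a rule on measured values, though earlier results of these data were known. All 9 were found by Ensembl ID in each of 3 gene count tables, which together list 84354 IDs. RNA came from HCT116 and WiDr, both human colorectal carcinoma cell lines, kept for 96 h with an inhibitor of a protein arginine methyltransferase (PRMT) or with the solvent DMSO. These enzymes add methyl groups to arginine in other proteins. GSK025 (GSK3235025, 10 µM) inhibits PRMT5, which makes symmetric dimethylarginine, and GSK715 (GSK3368715, 5 µM) is labelled a PRMT1 inhibitor, PRMT1 being the main enzyme that makes asymmetric dimethylarginine. Short paired reads were taken from HCT116 with DMSO, with GSK025 or with GSK715, and from WiDr with DMSO or GSK715, always as 3 libraries per group. WiDr with DMSO or GSK715 was also read as full-length cDNA on an Oxford Nanopore (ONT) instrument, as 2 libraries per group. No genetic change to either line is stated, and each line comes from 1 tumour.

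Intestinal epithelium keeps its identity through a network of factors that bind the enhancers of one another and of gut genes. The homeobox proteins CDX1 and CDX2 specify intestine as opposed to stomach, and the nuclear receptors HNF4A and HNF4G drive absorptive genes together with them. The zinc finger proteins KLF4 and KLF5 are a contrasting pair: KLF5 is known from dividing crypt cells and KLF4 from differentiated cells. GATA6, a zinc finger factor of endoderm, FOXA1, a forkhead factor that can open chromatin, and ONECUT2, a homeobox factor of liver, pancreas and gut, bind many of the same enhancers.

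The ONT libraries summed to 1.45 to 1.67 M counts, and the short-read libraries to 64.6 to 66.9 M for HCT116 and 59.6 to 82.4 M for WiDr. Levels are CPM, a gene's counts per 1 M counts of the library, scaled by the trimmed mean of M-values (TMM) within a table, and a gene is said to rise, fall or differ where edgeR's quasi-likelihood test gave a Benjamini-Hochberg adjusted p under 0.05 over all genes tested. Whether replicates were grown as separate cultures is not given in the sources used here, and p-values then measure only how far these libraries spread, which may be technical. Of 8 markers of colorectal epithelium, 8 reached a mean of 1 CPM in WiDr with DMSO but only 5 in HCT116, where VIL1, CDH17 and LGALS4 were below that level. Markers of stroma, endothelium and immune cells moved with treatment: they summed to 55.0 to 59.1 CPM with DMSO, 41.1 to 47.5 CPM with GSK025 and 101 to 111 CPM with GSK715 in HCT116. In WiDr short reads their sum was 28.9 to 30.9 CPM with DMSO and 59.4 to 66.8 CPM with GSK715, and in ONT 38.8 to 41.8 and 42.2 to 43.8 CPM. CD68, which many cell types express, went from a mean of 37.7 to 79.7 CPM with GSK715 in HCT116 and from 9.83 to 24.1 CPM in WiDr short reads, where CD14 went from 7.95 to 20.9 CPM. Some markers of that list were at 0 in all short-read libraries of a line, PTPRC and MS4A1 in HCT116 and DCN, COL1A2, COL3A1 and MS4A1 in WiDr. Others were not. COL1A1 had a mean of 17.0 CPM in HCT116 and 11.5 CPM in WiDr with DMSO. COL1A2 went from 0.0681 to 1.40 CPM with GSK025 in HCT116, and LUM from 0.481 to 1.96 CPM with GSK715 in WiDr. Mitochondrially encoded genes took 8.64% to 9.09% of HCT116 counts with DMSO, 5.13% to 5.48% with GSK025 and 5.09% to 5.42% with GSK715, against 6.07% to 6.49% with DMSO and 8.30% to 8.83% with GSK715 in WiDr. The part of these markers and genes in the results was not tested. In such bulk RNA, fewer cells with a transcript and less of it per cell cannot be told apart.

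The lines differed widely in these factors before any inhibitor was given. With DMSO, 7 of the 9 genes were higher in WiDr, CDX2 was higher in HCT116, and CDX1 did not pass (8 of 9 called, against 72.3% of all 22298 genes tested, 32.2% higher and 40.1% lower). FOXA1 showed the widest gap in favour of WiDr, 34.1-fold (log2 difference 5.09, SE 0.26, adjusted p = 4.4e-11), followed by HNF4G at 16.7-fold (4.06, SE 0.47, adjusted p = 1.1e-06) and KLF5 at 12.7-fold (3.67, SE 0.049, adjusted p = 8.3e-18). HNF4A was 6.15-fold, GATA6 4.37-fold, KLF4 3.30-fold and ONECUT2 1.47-fold higher in WiDr. Of all genes, 49.7% differed at least 2-fold. CDX2 went the other way and was 22.7-fold higher in HCT116 (log2 difference of WiDr minus HCT116 -4.50, SE 0.19, adjusted p = 2.5e-12). The lines were sequenced as separate tables, so line and experiment cannot be told apart here.

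Per kilobase of exon, with both lines scaled together, KLF5 was the most abundant of the 9 transcripts in each line, at 20.9 ± 0.694 CPM per kb in HCT116 and 266 ± 17.2 CPM per kb in WiDr (SD, n = 3, as for the levels that follow). KLF4 came next in both, at 12.1 ± 0.389 and 40.1 ± 0.808 CPM per kb. In HCT116 the order below them was GATA6 (3.01 ± 0.210 CPM per kb), CDX2 (2.87 ± 0.361), ONECUT2 (1.74 ± 0.0159), HNF4A (0.745 ± 0.100), FOXA1 (0.537 ± 0.286), HNF4G (0.379 ± 0.186) and CDX1 (0.0114 ± 0.0197). GATA6 and CDX2 overlapped there, and FOXA1 overlapped both HNF4A and HNF4G. In WiDr the order was FOXA1 (18.3 ± 1.76 CPM per kb), GATA6 (13.2 ± 0.411), HNF4G (6.32 ± 2.73), HNF4A (4.58 ± 0.291), ONECUT2 (2.56 ± 0.0932), CDX2 (0.126 ± 0.00680) and CDX1 (0.0732 ± 0.0673). The libraries of HNF4G spanned those of HNF4A there, and CDX2 and CDX1 lay within 1 SD of each other. The plot of DMSO levels shows FOXA1 and CDX2 trading places between the lines.

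**Figure D1:**
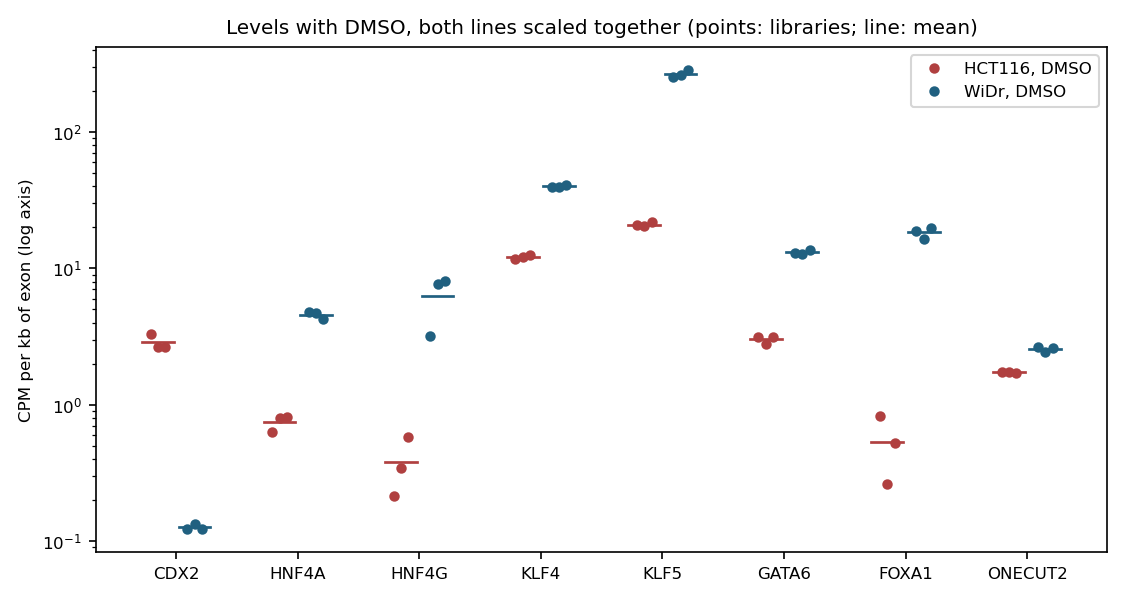
Level of 8 of the factors with DMSO in HCT116 and WiDr short reads, in CPM per kb of exon on a log axis. Points are libraries (n = 3 per line) and horizontal lines are means. CDX1 is left out because it has libraries at 0, and CDX2 alone is higher in HCT116.

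With GSK025 in HCT116, CDX2 and KLF5 rose, KLF4 and ONECUT2 fell, and 4 of the 8 genes tested did not pass, a share of called genes near that over all 19751 genes (44.1%, of which 22% rose and 22.1% fell, as shares of all). With GSK715 in HCT116, GATA6 rose and ONECUT2 fell, and 6 of 8 did not pass, where 46.4% of all genes were called (22.1% higher and 24.2% lower). With GSK715 in WiDr short reads, CDX1 and CDX2 rose, KLF4, KLF5, GATA6, FOXA1 and ONECUT2 fell, and HNF4A and HNF4G did not pass, so that 7 of 9 were called against 65.8% of 19340 genes (33.6% higher and 32.2% lower). Among them CDX1, CDX2, KLF4, KLF5 and ONECUT2 changed at least 2-fold, as did 27.9% of all genes. ONECUT2 alone reached that size in HCT116, where the background was 8.87% with GSK025 and 11.2% with GSK715. The median log2 fold change of the members tested was 0.24, 0.0012 and -0.42 in these comparisons, and that of all genes -0.018, -0.052 and 0.054. Libraries did not overlap between inhibitor and DMSO for 4, 2 and 7 members, where 54.8%, 57% and 72.2% of all genes did not overlap. Both HCT116 comparisons use the same DMSO libraries.

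**Figure D2:**
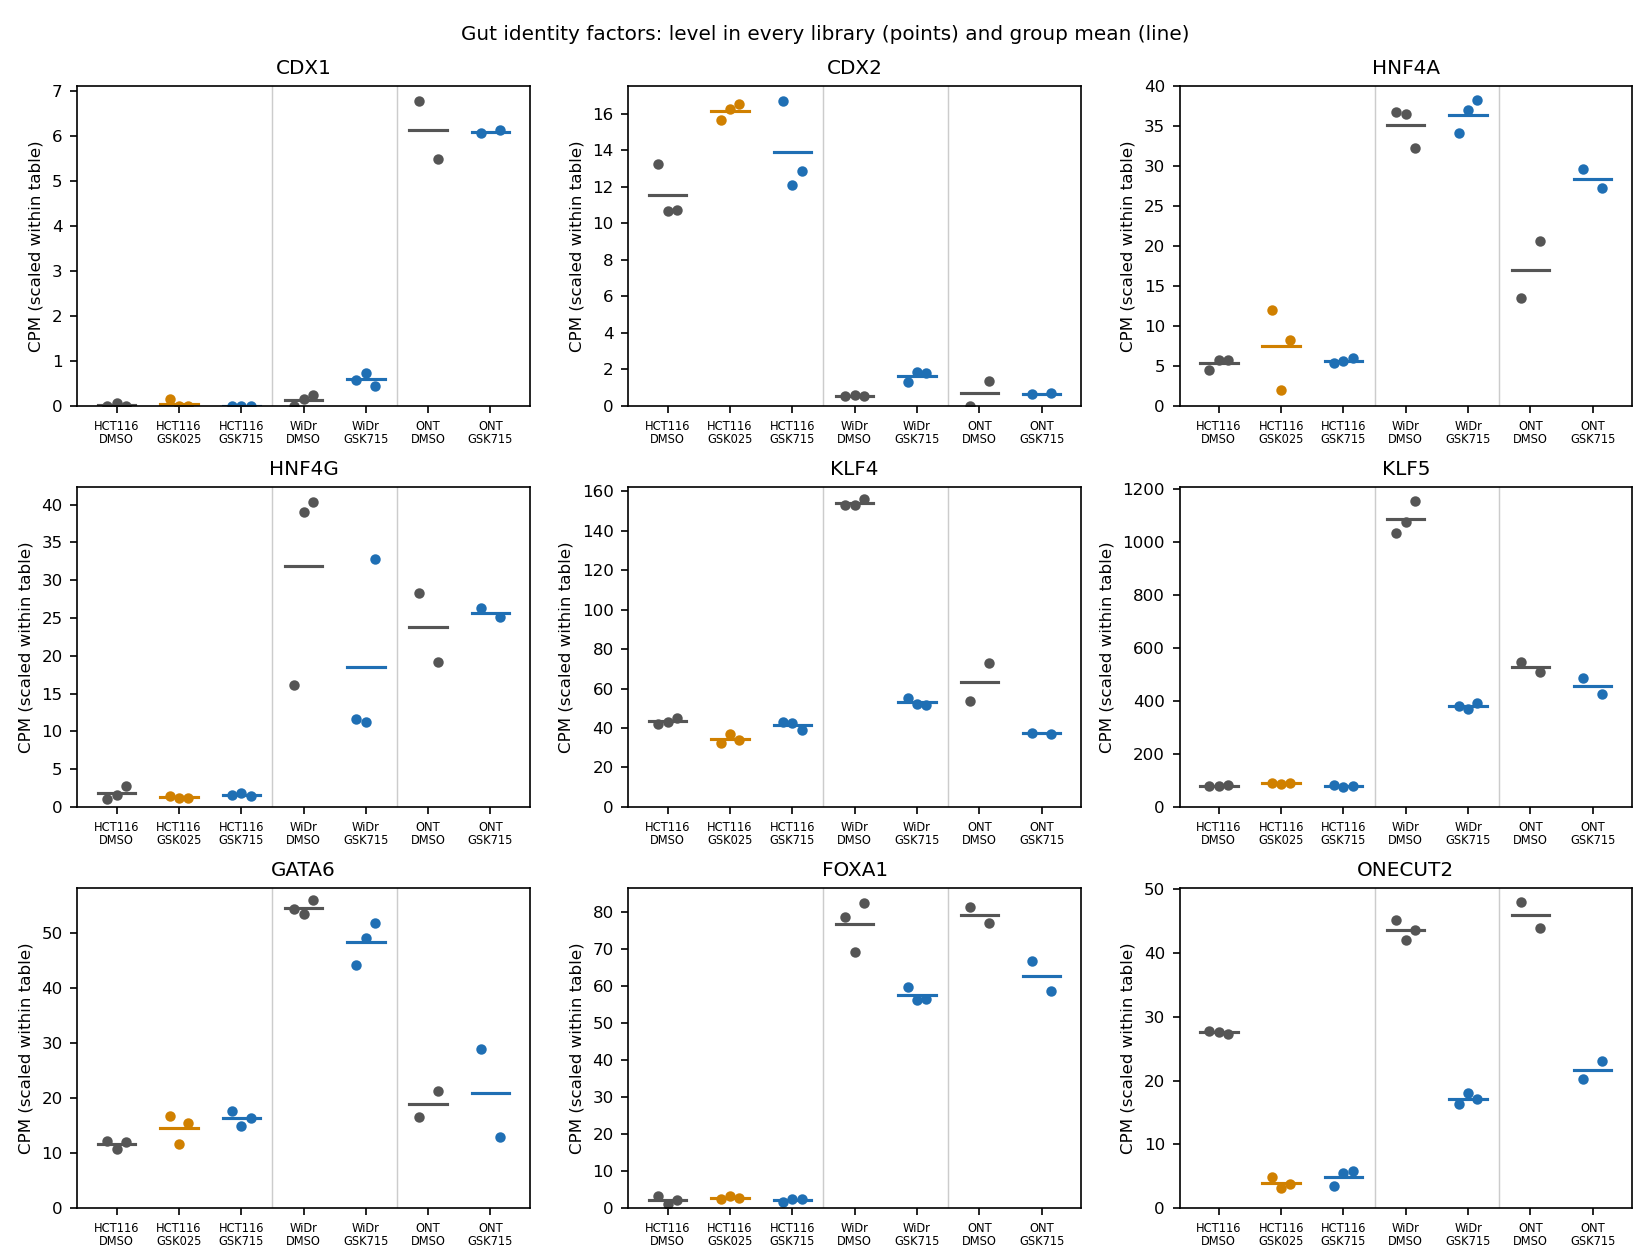
Level of each factor in every library, in CPM scaled within its table, by line, read type and treatment. Points are libraries (n = 3 per short-read group, n = 2 per ONT group) and horizontal lines are means. ONECUT2 passed as lower than DMSO in every inhibitor group. KLF4 and KLF5 passed as lower with GSK715 in WiDr short reads, and KLF4 also with GSK715 in ONT and GSK025 in HCT116.

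ONECUT2 (ENSG00000119547, GRCh38 chromosome 18, 57435685 to 57491297) fell with both inhibitors and in both lines. In HCT116 its level was 27.7, 27.7 and 27.3 CPM with DMSO, 4.78, 3.18 and 3.77 CPM with GSK025, and 3.51, 5.48 and 5.74 CPM with GSK715. No treated library came near a DMSO library, and the treated groups overlapped each other. The decrease was 7.04-fold with GSK025 (log2 fold change -2.82, SE 0.19, 95% interval -3.22 to -2.41, adjusted p = 1.1e-07) and 5.61-fold with GSK715 (-2.49, SE 0.18, adjusted p = 2.0e-07). In WiDr it stood at 45.1, 42.0 and 43.6 CPM with DMSO and at 16.2, 17.97 and 17.2 CPM with GSK715, again without overlap. That decrease was 2.54-fold (log2 fold change -1.35, SE 0.062, adjusted p = 2.95e-08), smaller than in HCT116 by 1.19 on the log2 scale (SE 0.21, adjusted p = 2.3e-04). These short-read calls held in every alternative tried. ONECUT2 has the longest exonic sequence of the 9 genes, 16.2 kb. Across 11184 genes of at least 5 CPM in HCT116, longer exonic sequence went with a lower log2 fold change (Spearman's rho -0.301 with GSK025 and -0.293 with GSK715, a description across genes, which are not independent and share libraries). In WiDr short reads that rho was -0.0635. The part of transcript length in the decrease of ONECUT2 was not tested in either line.

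Its paralogues, which bind the same kind of site, were measured too. ONECUT3 fell with GSK715 in HCT116 from 28.1 ± 1.70 to 8.95 ± 0.974 CPM (log2 fold change -1.65, SE 0.095, adjusted p = 2.4e-08), and ONECUT1 from 1.63 ± 0.620 to 0.101 ± 0.0326 CPM (-3.99, SE 0.50, adjusted p = 2.1e-05). ONECUT1 also fell with GSK025, to 0.533 ± 0.139 CPM (-1.61, SE 0.43, adjusted p = 0.0082), while ONECUT3 did not pass (-0.063, SE 0.091, adjusted p = 0.629). In WiDr both were too low to test, ONECUT1 at 0 in every short-read library and ONECUT3 at a mean of 0.238 CPM with DMSO and 0.0479 CPM with GSK715. Between the inhibitors ONECUT3 was lower with GSK715 than with GSK025, which left it at 26.9 ± 1.33 CPM (log2 difference -1.58, SE 0.095, adjusted p = 3.7e-08). For ONECUT2 that difference was 0.33 (SE 0.18, 95% interval -0.069 to 0.73, adjusted p = 0.171). It passed only without the first GSK715 library (0.52, adjusted p = 0.0161).

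KLF4 (ENSG00000136826, chromosome 9, 107484852 to 107490482) and KLF5 (ENSG00000102554, chromosome 13, 73054976 to 73077542) fell together with GSK715 in WiDr short reads and did not move together in HCT116. KLF5 was at 1033, 1075 and 1152 CPM in the WiDr DMSO libraries and at 380.5, 368 and 392 CPM with GSK715. The groups were far apart, and the decrease was 2.86-fold (log2 fold change -1.52, SE 0.041, adjusted p = 7.5e-10). KLF4 was at 153, 153 and 156 CPM with DMSO and at 55.1, 52.1 and 51.8 CPM with GSK715, a 2.91-fold decrease of nearly the same size (-1.54, SE 0.035, adjusted p = 2.3e-10). Every treated library held less of both transcripts than any DMSO library.

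In HCT116, KLF4 was at 42.0, 43.3 and 44.9 CPM with DMSO, 32.5, 36.8 and 34.0 CPM with GSK025, and 42.8, 42.5 and 39.1 CPM with GSK715. It fell 1.26-fold with GSK025, whose libraries all lay below DMSO (log2 fold change -0.33, SE 0.064, adjusted p = 8.3e-04). With GSK715 its libraries overlapped DMSO and the difference did not pass (-0.064, SE 0.064, 95% interval -0.20 to 0.075, adjusted p = 0.457). KLF5 stood at 78.6, 77.5 and 82.6 CPM with DMSO, 90.8, 85.9 and 88.7 CPM with GSK025, and 81.2, 76.0 and 79.2 CPM with GSK715. GSK025 raised it 1.11-fold (log2 fold change 0.15, SE 0.047, adjusted p = 0.0171), a call lost with library totals in place of TMM (0.086, adjusted p = 0.160) and without the first or second DMSO library or the first GSK025 library (adjusted p up to 0.0767). Under GSK715 it stayed within the spread of DMSO (-0.015, SE 0.047, 95% interval -0.12 to 0.087, adjusted p = 0.833). Library totals shift the median of all genes by -0.16 in that comparison, and under them both genes passed as lower with GSK715 (KLF4 -0.22, adjusted p = 0.00902; KLF5 -0.17, adjusted p = 0.00726).

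Compared directly, each at its one dose, the inhibitors differed in both genes: KLF4 was higher (log2 difference 0.27, SE 0.064, adjusted p = 0.0041) and KLF5 1.12-fold lower (-0.17, SE 0.047, adjusted p = 0.0106) with GSK715 than with GSK025. These were the 2 members called of 8, against 44.3% of all genes (21.8% higher and 22.5% lower), and 3 of 8 did not overlap, against 53% of all genes. The KLF5 difference was lost without the first GSK025 library (adjusted p = 0.0572) or the second GSK715 library (adjusted p = 0.0551). The other members gave log2 differences of -0.40 to 0.33. For CDX2 the 95% interval ran from -0.50 to 0.065, for GATA6 from -0.13 to 0.44, for HNF4A from -1.31 to 0.51, for HNF4G from -0.42 to 1.09 and for FOXA1 from -1.16 to 0.36. CDX2 passed as lower with GSK715 without its first library (-0.37, adjusted p = 0.0290), and HNF4A without the second GSK025 library (-0.85, adjusted p = 0.00393).

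The start regions of KLF4, KLF5 and ONECUT2 are shown because these are the members that fell at least 2-fold in WiDr short reads. GATA6 and FOXA1, which fell less there, are given by their motif counts. RefSeq windows on GRCh38.p14 run from 250 bases before to 50 bases after a transcript's start, 5′ to 3′ on the gene's strand, and were present for 7 of the 9 members. Capitals mark GGGCGG, the GC box bound by SP and KLF proteins, and CACCC, another site of KLF proteins, on either strand, and no match of one overlaps the other. KLF4 has a single listed window at chr9:107489720-107490019, minus strand. KLF5 has an upstream start at chr13:73054726-73055025 and a downstream start at chr13:73058755-73059054, plus strand. The window of ONECUT2 is at chr18:57435124-57435423, plus strand, and lies before the GENCODE 29 start of the gene.
KLF4: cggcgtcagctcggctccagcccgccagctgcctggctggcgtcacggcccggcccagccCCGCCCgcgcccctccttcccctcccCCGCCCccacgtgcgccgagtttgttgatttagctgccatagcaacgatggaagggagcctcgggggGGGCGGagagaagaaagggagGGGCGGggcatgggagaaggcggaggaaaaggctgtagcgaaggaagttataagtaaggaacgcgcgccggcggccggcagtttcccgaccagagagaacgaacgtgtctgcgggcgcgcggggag
KLF5, upstream start: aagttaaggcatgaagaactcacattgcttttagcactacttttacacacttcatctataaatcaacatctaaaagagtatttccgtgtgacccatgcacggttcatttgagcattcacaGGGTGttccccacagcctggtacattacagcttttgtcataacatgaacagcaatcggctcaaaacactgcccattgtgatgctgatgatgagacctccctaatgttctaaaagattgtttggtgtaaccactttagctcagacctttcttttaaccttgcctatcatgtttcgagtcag
KLF5, downstream start: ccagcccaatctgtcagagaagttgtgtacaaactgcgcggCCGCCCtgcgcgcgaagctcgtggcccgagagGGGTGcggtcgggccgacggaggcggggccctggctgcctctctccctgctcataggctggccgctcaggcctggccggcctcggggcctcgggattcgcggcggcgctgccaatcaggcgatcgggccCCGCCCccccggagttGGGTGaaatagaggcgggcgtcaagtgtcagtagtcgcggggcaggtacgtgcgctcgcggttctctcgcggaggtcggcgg
ONECUT2: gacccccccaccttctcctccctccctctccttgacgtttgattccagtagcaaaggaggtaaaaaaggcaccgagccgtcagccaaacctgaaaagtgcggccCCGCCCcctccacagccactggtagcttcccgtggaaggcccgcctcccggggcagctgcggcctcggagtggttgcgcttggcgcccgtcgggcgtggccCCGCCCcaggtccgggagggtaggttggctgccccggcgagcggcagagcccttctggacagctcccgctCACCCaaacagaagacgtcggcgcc

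KLF4 has 4 GC boxes in 69% G and C, the downstream start of KLF5 has 2 in 71.3%, and ONECUT2 has 2 in 68%. FOXA1 has 2 GC boxes and no CACCC in 69.3%, and GATA6 no GC box and 2 CACCC in 66.7%. The upstream start of KLF5 differs in make-up, with 40.7% G and C, no GC box and a TATAAA motif. The median over 35116 promoters was 58.7% G and C. GGGCGG was found in 6 of the 9 windows of the members and in 45.0% of all promoters, and CACCC in 6 of 9 and in 59.9%. TATAAA was in 1 of 9 against 11.5%, CCAAT in 4 of 9 against 34.6%, the forkhead motif TGTTTAC in 1 of 9 against 3.42%, the GATA motif AGATAA in 2 of 9 against 10.3%, and the CDX motif TTTATG in 0 of 9 against 10.6%, all on both strands. The forkhead match was in the window of CDX2, and the GATA matches were in those of CDX2 and of the upstream start of HNF4A.

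CDX2 (ENSG00000165556, chromosome 13, 27962137 to 27971139), often called the master factor of intestine, rose with GSK715 in WiDr and with GSK025 in HCT116. In WiDr its level was low throughout: 0.536, 0.583 and 0.521 CPM with DMSO (32, 36 and 41 counts) and 1.33, 1.84 and 1.82 CPM with GSK715 (91, 125 and 114 counts). The groups were apart, and the increase was 3.04-fold (log2 fold change 1.60, SE 0.27, adjusted p = 4.2e-04). In HCT116 it was at 13.2, 10.7 and 10.7 CPM with DMSO, 15.7, 16.3 and 16.5 CPM with GSK025, and 16.7, 12.1 and 12.9 CPM with GSK715. All GSK025 libraries lay above DMSO (1.40-fold, log2 fold change 0.48, SE 0.13, adjusted p = 0.0083), while the GSK715 libraries overlapped it (0.27, SE 0.13, 95% interval -0.017 to 0.55, adjusted p = 0.118). The GSK715 response was larger in WiDr by 1.39 on the log2 scale (SE 0.24, adjusted p = 1.5e-04). Even so, WiDr with GSK715 stayed below HCT116 with DMSO, at 1.64 ± 0.285 against 11.8 ± 1.49 CPM with both lines scaled together.

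CDX1 (ENSG00000113722, chromosome 5, 150166795 to 150184558), the paralogue of CDX2, was at the edge of detection. Its counts in HCT116 were 0, 4 and 0 with DMSO, 10, 0 and 0 with GSK025, and 0 in each of the 3 GSK715 libraries, too few for a test. A library at 0 there allows up to 0.0483 CPM (3 counts, counting error only). In WiDr it had 0, 10 and 19 counts with DMSO (0, 0.162 and 0.242 CPM) and 40, 50 and 28 counts with GSK715 (0.587, 0.737 and 0.447 CPM). The groups did not overlap, and the increase of 4.24-fold just passed (log2 fold change 2.08, SE 0.82, 95% interval 0.24 to 3.92, adjusted p = 0.0466). It was lost in 6 of 11 alternatives, among them no count filter (adjusted p = 0.101) and leaving out the second DMSO library or any one GSK715 library (adjusted p 0.0785 to 0.145).

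HNF4A (ENSG00000101076, chromosome 20, 44355700 to 44434596) and HNF4G (ENSG00000164749, chromosome 8, 75407914 to 75566843) passed in no comparison with DMSO, and in some groups their libraries lay far apart. HNF4A was at 4.49, 5.69 and 5.78 CPM in HCT116 with DMSO and at 12.0, 2.04 and 8.28 CPM with GSK025, so 2 treated libraries lay above DMSO and 1 below it. Its log2 fold change of 0.48 (SE 0.42, adjusted p = 0.400) became 0.93 (adjusted p = 0.00194) without the second GSK025 library and -0.048 without the first. With GSK715 the HCT116 libraries held 5.31, 5.62 and 5.96 CPM, inside or next to the DMSO range (0.083, SE 0.42, adjusted p = 0.896). In WiDr, HNF4A was at 36.8, 36.5 and 32.2 CPM with DMSO and at 34.1, 37.0 and 38.2 CPM with GSK715. The groups overlapped in part, with 2 treated libraries above every DMSO library (0.051, SE 0.069, 95% interval -0.10 to 0.21, adjusted p = 0.537).

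HNF4G varied most in WiDr, where it was at 16.1, 39.0 and 40.4 CPM with DMSO and at 11.6, 11.2 and 32.8 CPM with GSK715. One library of each group thus sat with the other group (log2 fold change -0.78, SE 0.44, 95% interval -1.76 to 0.20, adjusted p = 0.142). Without the first DMSO library the decrease passed (-1.11, adjusted p = 0.038), as it did without the third GSK715 library (-1.48, adjusted p = 0.0072). In HCT116 its level was at most 2.73 CPM in any library, and neither inhibitor gave a difference that passed (-0.47, adjusted p = 0.318 with GSK025 and -0.14, adjusted p = 0.785 with GSK715).

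GATA6 (ENSG00000141448, chromosome 18, 22169443 to 22202528) moved in opposite directions with GSK715 in the lines. In HCT116 it was at 12.1, 10.7 and 12.0 CPM with DMSO, 16.7, 11.7 and 15.4 CPM with GSK025, and 17.7, 14.8 and 16.3 CPM with GSK715. GSK715 libraries all lay above DMSO (1.40-fold, log2 fold change 0.49, SE 0.13, adjusted p = 0.0078), and GSK025 left the second library within the DMSO range (0.33, SE 0.13, adjusted p = 0.0573). The GSK025 difference passed without that library (adjusted p = 0.0056) and with DESeq2 (adjusted p = 0.0348), and the GSK715 call ended with library totals (0.33, adjusted p = 0.0573). In WiDr it fell from 54.4, 53.5 and 55.9 CPM to 44.2, 49.0 and 51.9 CPM, a 1.13-fold decrease (-0.17, SE 0.058, adjusted p = 0.0235). That call was lost with library totals (-0.050, adjusted p = 0.492), without the third DMSO library (adjusted p = 0.0667) and without the first GSK715 library (adjusted p = 0.0695). The response differed between the lines by -0.61 (SE 0.15, adjusted p = 0.0040), again not with library totals (-0.38, adjusted p = 0.0602).

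Exons of GATA6 share 14.2% of their bases with other genes, the most (8.14%) with AC091588.3 on the opposite strand. The strand of the libraries is not given in the sources used here, so the level of GATA6 is uncertain. GATA6-AS1, an antisense RNA that starts beside it and was picked after its values were seen, rose in WiDr short reads from 2.28, 1.82 and 2.02 CPM to 5.69, 5.65 and 5.52 CPM (log2 fold change 1.46, SE 0.16, adjusted p = 2.1e-05). It thus moved against GATA6 there, and it did not pass in HCT116 (adjusted p = 0.208 with GSK025 and 0.553 with GSK715). In ONT it was at 8.61 and 8.91 CPM with DMSO and at 7.41 and 8.85 CPM with GSK715 (-0.11, SE 0.42, adjusted p = 0.923).

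FOXA1 (ENSG00000129514, chromosome 14, 37589984 to 37596059) was abundant in WiDr and low in HCT116. It was at 78.5, 69.0 and 82.3 CPM there with DMSO and at 59.5, 56.1 and 56.5 CPM with GSK715. The groups did not overlap, and it fell 1.33-fold (log2 fold change -0.42, SE 0.060, adjusted p = 1.5e-04). HCT116 gave 3.23, 1.01 and 2.03 CPM with DMSO, 2.40, 3.30 and 2.67 CPM with GSK025, and 1.69, 2.31 and 2.35 CPM with GSK715. Both treated groups overlapped DMSO, though not each other (0.42, adjusted p = 0.385 with GSK025 and 0.017, adjusted p = 0.976 with GSK715). Its response to GSK715 differed between the lines by -0.38 (SE 0.35, adjusted p = 0.411), and passed only without the first HCT116 DMSO library (-0.92, adjusted p = 0.0149).

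Between the lines, the response to GSK715 differed for 5 of the 9 members (45.5% of all 22298 genes, 25.4% higher and 20.1% lower): it was more positive or less negative in WiDr for CDX2 and ONECUT2, and more negative for KLF4, KLF5 and GATA6. KLF5 differed by -1.45 (SE 0.064, adjusted p = 4.0e-11) and KLF4 by -1.43 (SE 0.073, adjusted p = 2.6e-10). HNF4A (0.018, SE 0.51), HNF4G (-0.60, SE 0.62), FOXA1 and CDX1 (5.67, SE 2.93, adjusted p = 0.138) did not pass. The plot of responses shows ONECUT2 far below 0 in every short-read comparison, and KLF4 and KLF5 side by side far below 0 in WiDr short reads.

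**Figure D3:**
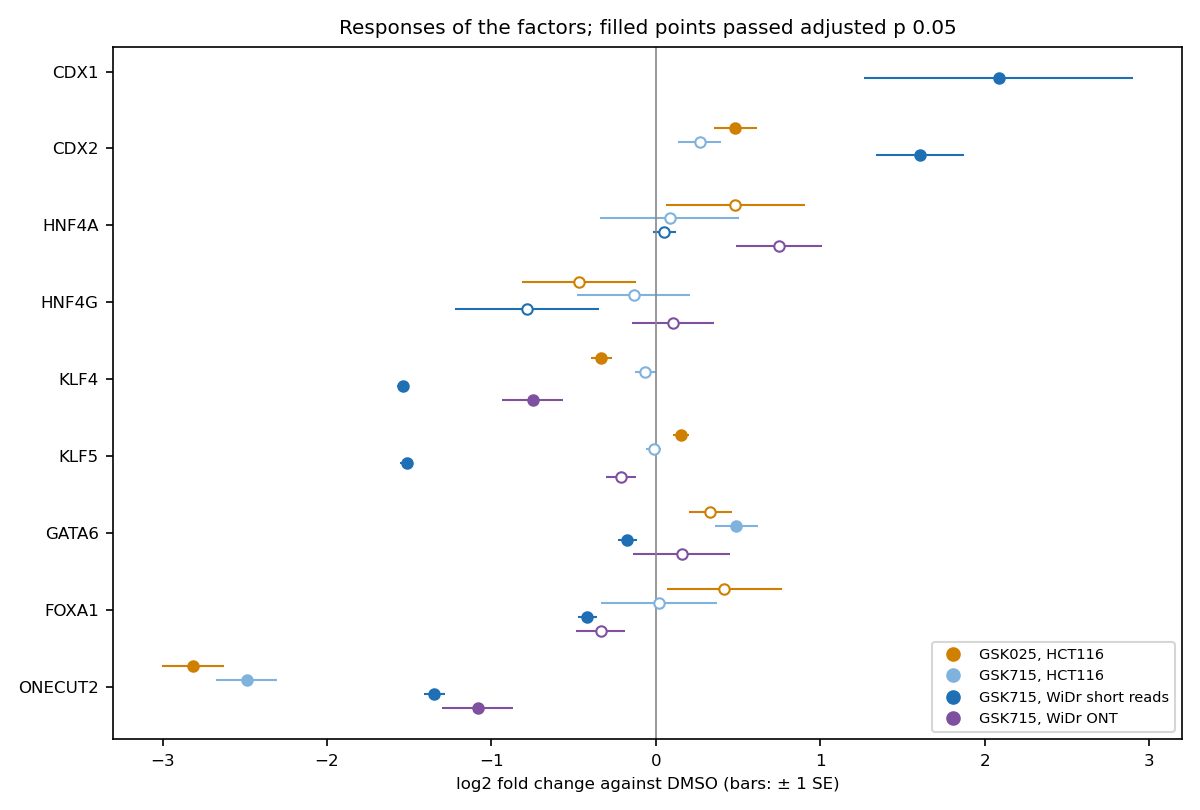
Log2 fold change of each factor against DMSO for GSK025 and GSK715 in HCT116 and for GSK715 in WiDr short reads and ONT, with bars of 1 SE to each side. Filled points passed an adjusted p of 0.05, and genes not tested in a table have no point. ONECUT2 is below 0 in all comparisons (-2.82, -2.49, -1.35 and -1.08).

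The ONT libraries of WiDr are far shallower than the short-read ones, and 7 members could be tested in them. KLF4 and ONECUT2 fell, and no member rose (2 of 7 called, against 8.8% of 15877 genes, 4.29% higher and 4.51% lower). KLF5 and FOXA1, with negative log2 fold changes, and HNF4A, with a positive one, did not pass. Their unadjusted p was under 0.05, a threshold at which the share of all genes was not counted. Groups did not overlap for 5 of 7, against 50.1% of all genes. ONECUT2 went from 48.0 and 43.9 CPM with DMSO to 20.2 and 23.1 CPM with GSK715, a 2.12-fold decrease (log2 fold change -1.08, SE 0.22, adjusted p = 4.6e-04), and 3.73% of all genes changed at least 2-fold. KLF4 went from 53.5 and 72.7 CPM to 37.7 and 36.8 CPM, a 1.68-fold decrease (-0.75, SE 0.18, adjusted p = 0.0049). Both calls were lost with DESeq2 (adjusted p = 0.113 and 0.325) and with no count filter (0.0576 and 0.197), and that of KLF4 also without the second DMSO library (-0.53, adjusted p = 0.213).

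KLF5, which fell so clearly in short reads, was at 546 and 510 CPM with DMSO and at 485 and 426 CPM with GSK715 in ONT. Treated libraries lay below DMSO, but the difference did not pass (log2 fold change -0.21, SE 0.093, 95% interval -0.40 to -0.026, adjusted p = 0.157). It passed with library totals (-0.27, adjusted p = 0.0134) and without the first GSK715 library (-0.31, adjusted p = 0.0298). FOXA1 was at 81.2 and 76.8 CPM against 66.7 and 58.5 CPM (-0.34, SE 0.15, adjusted p = 0.164). HNF4A was at 13.5 and 20.6 CPM with DMSO and, higher in both, at 29.6 and 27.2 CPM with GSK715, which did not pass either (0.75, SE 0.26, adjusted p = 0.0634). HNF4G (28.3 and 19.2 against 26.3 and 25.2 CPM) and GATA6 (16.6 and 21.3 against 28.96 and 12.9 CPM) overlapped between groups.

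CDX1 and CDX2 were too sparse in ONT for a test. CDX2 had 0 and 2 counts with DMSO and 1 in each GSK715 library, and the library at 0 allows up to 1.85 CPM (3 counts), about the highest WiDr short-read level of the gene. CDX1 had 11 and 8 counts with DMSO and 9 in each GSK715 library, or 5.49 to 6.77 CPM. In the short-read libraries of the same line and treatments it reached at most 0.737 CPM, and the tables were scaled separately. CDX1 has the shortest exonic sequence of the 9 (1.76 kb).

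Read types were set against each other in 1 fit. The response to GSK715 differed for 3 of the 9 members, all less negative or more positive in ONT, against 19.9% of all genes (11.2% in that direction and 8.69% in the other). KLF5 differed by 1.35 (SE 0.095, adjusted p = 1.3e-06) and KLF4 by 0.84 (SE 0.16, adjusted p = 0.0028), and both held in all 15 alternatives. HNF4A differed by 0.75 (SE 0.23, adjusted p = 0.0391), a call lost in 9 of 15 alternatives. ONECUT2 differed by 0.31 (SE 0.17, 95% interval -0.053 to 0.67, adjusted p = 0.374). Read type, library preparation and whatever else set these experiments apart cannot be told apart here.

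Close relatives of the members were followed as a list of 22 genes from the same and related families. Of 18 tested in HCT116, 6 rose and 6 fell with GSK025 (median log2 fold change 0.16), and 1 rose and 6 fell with GSK715 (median -0.10). KLF12 fell 3.40-fold with GSK025 (14.8 ± 2.41 to 4.35 ± 0.539 CPM, log2 fold change -1.76, SE 0.17, adjusted p = 2.0e-06) and KLF6, an early response factor, 1.59-fold (-0.67, SE 0.042, adjusted p = 7.3e-08), while KLF11 (0.96) and GATA2 (0.76) rose. In WiDr short reads, 5 of 16 rose and 10 fell (median -0.23). KLF10, a factor induced by TGF-beta, fell from 235 ± 5.65 to 68.3 ± 1.69 CPM (-1.78, SE 0.034, adjusted p = 8.8e-11) and KLF3, a repressor, from 298 ± 1.63 to 157 ± 4.07 CPM (-0.92, SE 0.030, adjusted p = 2.5e-09). KLF15 rose from 0.330 ± 0.195 to 2.19 ± 0.414 CPM (2.73, SE 0.40, adjusted p = 1.7e-04). ONT called 2 of 12, both lower: KLF6 (-0.86, adjusted p = 2.4e-07) and KLF10 (-0.79, adjusted p = 6.8e-04). KLF3 did not pass in ONT, at 141 ± 9.42 CPM with DMSO and 152 ± 12.3 CPM with GSK715 (0.12, SE 0.11, adjusted p = 0.628). KLF15 was too low there to test. Shares called in this list were 66.7% with GSK025 and 38.9% with GSK715 in HCT116, 93.75% in WiDr short reads and 16.7% in ONT. Over all genes they were 44.1%, 46.4%, 65.8% and 8.8%.

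Of 24 other transcription and splicing factors of gut epithelium, 20 were tested in HCT116: 8 rose and 2 fell with GSK025 (median 0.21), and 6 rose and 4 fell with GSK715 (median 0.14). SOX9, a factor of crypt base cells, was at 129 ± 3.42 CPM with DMSO. It rose to 201 ± 5.89 CPM under GSK025 (0.64, SE 0.039, adjusted p = 6.0e-08). GSK715 raised it to 166 ± 1.76 CPM (0.37, SE 0.039, adjusted p = 4.6e-06). ELF3, an epithelial ETS factor, rose in each comparison: by 0.48 with GSK025 and 0.40 with GSK715 in HCT116, by 0.97 in WiDr short reads and by 0.51 in ONT. In WiDr short reads, 10 of 22 rose and 9 fell (median 0.15). PPARG, a nuclear receptor of differentiated colonocytes, fell 6.31-fold there, from 97.8 ± 2.95 to 15.5 ± 1.31 CPM (-2.66, SE 0.062, adjusted p = 2.9e-10), and in ONT from 102 ± 8.20 to 55.8 ± 2.94 CPM (-0.88, SE 0.14, adjusted p = 2.0e-05). ESRP1, a splicing regulator of epithelia, fell by 1.21 on the log2 scale in WiDr short reads (SE 0.027, adjusted p = 2.4e-10). In ONT it did not pass, at 98.3 ± 0.655 CPM with DMSO and 93.8 ± 4.05 CPM with GSK715 (-0.067, SE 0.13, adjusted p = 0.829). ONT called 2 of 15 higher and 1 lower (median 0.080). Shares called in this list were 50% with either inhibitor in HCT116, 86.4% in WiDr short reads and 20% in ONT. Over all genes they were 44.1% with GSK025 and 46.4% with GSK715 in HCT116, 65.8% in WiDr short reads and 8.8% in ONT.

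Genes known as targets of CDX2 or HNF4 factors did not share a direction. Of 28, 17 were tested in HCT116, where all but DPP4 and EPHB3 had a mean of at most 1.97 CPM in every group. Only EPHB3 passed with GSK025, and it rose (0.35, SE 0.080, adjusted p = 0.0027). With GSK715, EPHB3 (0.52, adjusted p = 1.3e-04) and MUC13 (1.26, adjusted p = 0.0357) rose, and KRT20 (-2.07, adjusted p = 0.0016) and CDHR5 (-2.31, adjusted p = 0.0115) fell, the last 3 from or to levels of at most 1.48 CPM. In WiDr short reads, 8 of 19 rose and 7 fell (median 0.045). TMPRSS2, a membrane protease, rose from 16.2 ± 0.997 to 73.4 ± 1.29 CPM (2.18, SE 0.055, adjusted p = 5.1e-10) and MUC13, a membrane mucin, from 161 ± 2.05 to 309 ± 2.98 CPM (0.94, SE 0.027, adjusted p = 1.2e-09). In ONT MUC13 pointed the other way without passing (59.5 ± 3.18 to 45.7 ± 2.05 CPM, -0.38, SE 0.17, adjusted p = 0.174). CEACAM5, a cell adhesion protein, fell from 265 ± 9.72 to 77.9 ± 1.03 CPM (-1.77, SE 0.035, adjusted p = 1.1e-10) and KRT20, a keratin of differentiated cells, from 605 ± 7.05 to 261 ± 10.5 CPM (-1.21, SE 0.033, adjusted p = 7.5e-10). In ONT, CDH17 rose (1.49, SE 0.44, adjusted p = 0.0245), 4 of 13 fell, among them CEACAM5 (-1.06, adjusted p = 5.1e-04) and CEACAM6 (-0.74, adjusted p = 2.6e-04), and the median was -0.16. Shares called in this list were 5.88% with GSK025 and 23.5% with GSK715 in HCT116, 78.9% in WiDr short reads and 38.5% in ONT. Over all genes they were 44.1%, 46.4%, 65.8% and 8.8%.

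**Figure D4:**
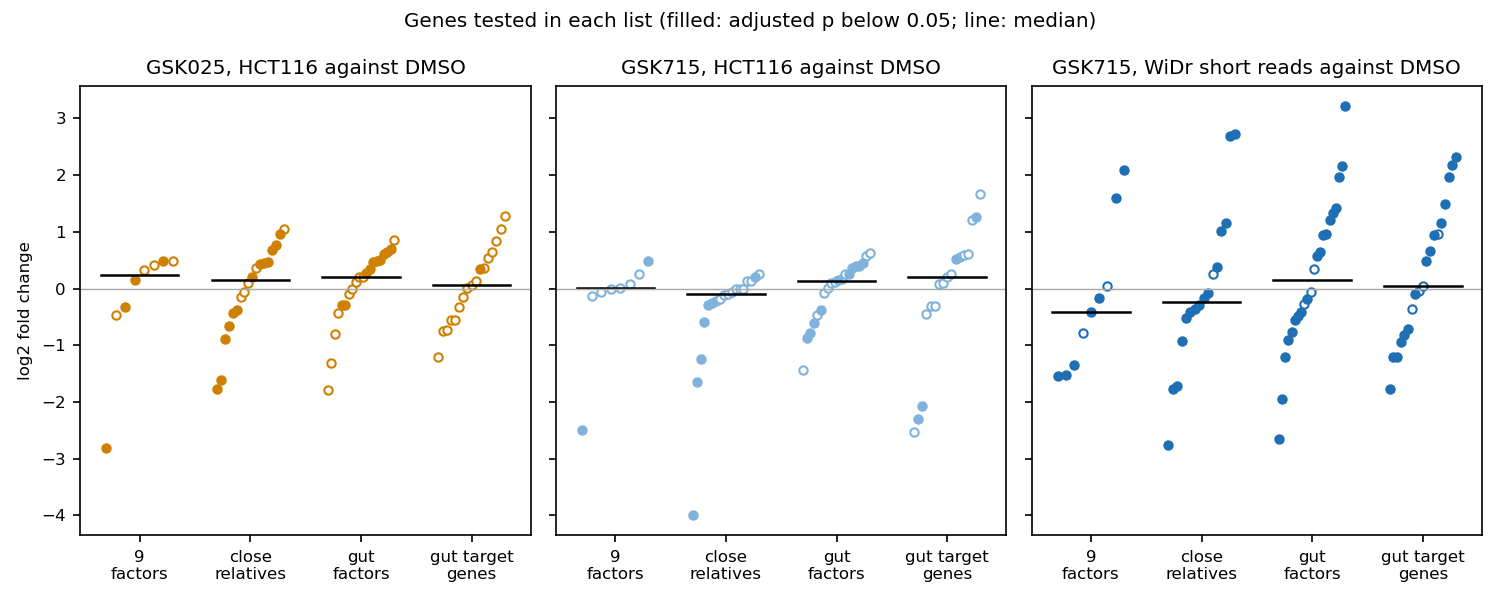
Log2 fold changes of the genes tested among the 9 factors, their close relatives, other gut epithelium factors and gut target genes, in the short-read comparisons with DMSO. Points are genes, filled where the adjusted p is under 0.05, and horizontal lines are list medians. In WiDr every list shown has called genes on both sides of 0.

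Other markers in WiDr short reads moved beside these lists. MUC5AC, a mucin of stomach, went from 785 to 828 CPM with DMSO to 193 to 213 CPM with GSK715. GKN1, a defining stomach gene, was at 0 in both groups. TFF1, another stomach marker, had a mean of 1.93 CPM with DMSO and 1.17 CPM with GSK715 (6.23 and 5.42 CPM in ONT). SOX2 had 0.0941 and 0.132 CPM. SERPINA1, which liver and gut both express, went from 498 to 513 CPM to 200.2 to 203 CPM. ALB, the defining liver gene, was at 0 in both groups. TTR, also a liver marker, had a mean of 0.0432 CPM with DMSO and 0.923 CPM with GSK715 (6.88 and 9.81 CPM in ONT). APOA1 had 0 and 0.0687 CPM. The 8 epithelial markers summed to 15598 to 15876 CPM with DMSO and 22536 to 23046 CPM with GSK715. Most of that gap lay in the keratins KRT8 (mean 8778 and 12529 CPM) and KRT18 (4083 and 7035 CPM), whereas LGALS4 (673 and 381 CPM) and EPCAM (543 and 481 CPM) were lower with GSK715. In ONT, means with DMSO and GSK715 were 521 and 268 CPM for MUC5AC and 167 and 141 CPM for SERPINA1. LGALS4 had 1060 and 948 CPM there, and EPCAM 377 and 354 CPM. KRT8 (5972 and 8173 CPM) and KRT18 (4988 and 7958 CPM) were higher with GSK715 in ONT too. KRT19 was lower in ONT (3031 and 2664 CPM) and higher in short reads (1049 and 1567 CPM). The part of these markers in the results on the members was not tested.

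The genes whose short-read responses were most like each member's were found by the distance over 3 log2 fold changes (GSK025 and GSK715 in HCT116, GSK715 in WiDr) among 9794 genes with a mean of at least 5 CPM in each line. ONECUT2 had no close match: PUS7L, at a distance of 0.51, had -2.43, -2.25 and -1.11, and BDP1 lay at 0.94. KLF5 was nearest to CRACD (0.043; 0.17, -0.049 and -1.49) and KLF4 to GRPEL2 (0.077; -0.27, -0.10 and -1.51). CDX2 was nearest to CKMT1B (0.077; 0.53, 0.26 and 1.54), and GATA6 to PPP6R1 (0.032; 0.36, 0.49 and -0.17). FOXA1 lay nearest to PSMD3 (0.012), HNF4A to UBB (0.032) and HNF4G to SLC10A7 (0.047). The next neighbours were NDUFAF2 for KLF5, AAK1 for KLF4, MAP3K14-AS1 for CDX2, NXF1 for GATA6, EPHB4 for FOXA1, SARS2 for HNF4A and ZNF639 for HNF4G. Likeness over 3 values that share libraries is a description and carries no test.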

How the data were processed

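Gene tables of 19 libraries were used: short reads of HCT116 and WiDr, and ONT full-length cDNA of WiDr. The short-read tables hold whole-number raw counts, as deposited by the authors. ONT values are estimated counts, as the authors deposited them. Of these 15.1% are not whole, and all were rounded. Per the submitters' processing notes, cutadapt, HISAT2, StringTie, DESeq2, minimap2, Salmon and GRCh38 were used, and the annotation release, versions and strand are not given in the sources used here. Columns named NC in both WiDr tables were taken as DMSO by elimination. A deposited table of ONT read statistics was not used.

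All genes of a table entered a fit by edgeR 4.0.16 under R 4.3.3 (filterByExpr at a minimum count of 10 and total of 15, TMM, quasi-likelihood F-test, Benjamini-Hochberg). The 9 HCT116 libraries shared 1 fit. Line and read-type interactions were fitted over shared IDs (60259 and 61975). In the ONT table, 3991 IDs are not from Ensembl and hold 8.49% to 9.81% of the counts. They stayed in the fit. SEs and 95% intervals are approximate, from the F statistic. Lengths, coordinates and overlaps came from GENCODE 29. Fits were tested on simulated data. No library was a copy of another. The members, the gene lists and the rule for naming genes were chosen with earlier results of these data known. Named were the 9 members, from each list the 2 called genes of lowest adjusted p per direction and comparison (the text prints a part, and a gene that the rule takes is not reported here), and the 2 genes nearest to each member. Precision follows depth in part, so genes with few counts and the ONT libraries are measured less well. It also follows the spread between libraries, which was wide for HNF4G in WiDr short reads (762 to 3176 counts, SE 0.44). Alternatives were RLE size factors, library totals, no count filter, a replicate block, DESeq2 1.42.0, only the groups compared, and each replicate left out in turn.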

Additional observations from a re-analysis of the deposited data

Results flagged for a closer look

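The response of 5 members to GSK715 differed between the lines by the interaction test: CDX2 by 1.39, KLF4 by -1.43, KLF5 by -1.45, GATA6 by -0.61 and ONECUT2 by 1.19 (log2, WiDr minus HCT116). The response of 3 members differed between read types in WiDr: HNF4A by 0.75, KLF4 by 0.84 and KLF5 by 1.35 (log2, ONT minus short reads). Groups of 3 or fewer libraries are too small for a test of single outlying libraries, so HNF4A with GSK025 in HCT116 and HNF4G in WiDr, whose libraries lie far apart, were not tested that way.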

How the results depend on the processing

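Precision is limited by 3 libraries a group (2 in ONT), by counts of at most 125 for CDX1 and CDX2 in WiDr, and by the depth of ONT. Libraries that lie far apart also limit it for HNF4A with GSK025 in HCT116 and for HNF4G in WiDr short reads. Short-read calls of ONECUT2, and in WiDr those of CDX2, KLF4, KLF5 and FOXA1, kept direction and threshold in all alternatives. In ONT, 0 members were called with no count filter and 0 with DESeq2 (1 to 3 with a replicate left out). Genes called higher there were 141 with no count filter and 152 with DESeq2 (236 to 571 with a replicate left out, 681 as reported), and lower 110 and 125 (228 to 509, 716 as reported). Members called between the inhibitors were 1 to 4 with a replicate left out. Library totals shifted the median of all genes by -0.16 for GSK715 in HCT116, 0.12 in WiDr, 0.23 between the lines and -0.20 between read types.

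Reversals were confined to results that had not passed. For GSK715 in HCT116, KLF5 was 0.0071 with RLE and with DESeq2 and 0.0081 with only the groups compared, and library totals gave -0.076 for HNF4A and -0.14 for FOXA1. HNF4A between the lines was -0.045 with RLE and with DESeq2, and FOXA1 between read types -0.085 with library totals. With a replicate left out, the log2 ranges were, for GSK715 in HCT116, KLF5 -0.034 to 0.015, HNF4A -0.023 to 0.15, HNF4G -0.42 to 0.31 and FOXA1 -0.31 to 0.48. HNF4A spanned -0.048 to 0.93 with GSK025, -0.85 to 0.13 between inhibitors, -0.010 to 0.091 in WiDr and -0.13 to 0.050 between lines. In ONT, HNF4G spanned -0.14 to 0.42 and GATA6 -0.54 to 0.62, and between read types CDX2 spanned -2.58 to 5.85 and GATA6 -0.34 to 0.83. The cause was not tested.

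Deviations of same-numbered libraries had correlations of -0.034 to 0.034. In WiDr short reads these were 0.029 to 0.034, and those of differently numbered libraries -0.048 to 0.017. As the deviations are from means of 2 or 3 libraries, correlations this small do not settle whether the numbers pair them. With the replicate block, GATA6 with GSK025 (0.32, adjusted p = 0.027), HNF4G in WiDr (-0.84, 0.0231) and HNF4A in ONT (0.75, 0.0466) passed, and CDX1 in WiDr (2.44, 0.0658) and HNF4A between read types (0.75, 0.0582) no longer did. The block changed no other member's call.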
